A study of Mus musculus with 107 samples.

Results

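The genes described are the CC chemokines Ccl2, Ccl3, Ccl4, Ccl7, Ccl8, Ccl17, Ccl20, Ccl22 and Ccl27a, together with Cxcl14, a CXC chemokine of skin. Every probe set named to 1 of these symbols alone was taken, which gave 11 probe sets for the 10 genes, of 12393 genes on Affymetrix array A. Mouse ears were biopsied for RNA 24 h after sulfur mustard, a blistering alkylator. The right ear received 0.08 mg (0.5 µmol) of mustard in 5 µL of methylene chloride, and the left ear received methylene chloride. The mustard series held 6 ears given dimercaprol and then mustard, 6 given indomethacin and then mustard, 5 given octylhomovanillamide and then mustard, 5 given mustard alone, and 21 given methylene chloride. The drugs were applied in ethanol 15 min before mustard. Dimercaprol, a chelator with a pair of thiols, was given at 6.25 mg (50.3 µmol) in 10 µL. Indomethacin, an inhibitor of cyclooxygenases, was given at 1.34 mg (3.74 µmol) in 20 µL. Octylhomovanillamide, an analog of capsaicin, was given at 0.6 mg per its treatment label and 0.585 mg (1.995 µmol) per its protocol, in 30 µL. A separately numbered set of animals had no mustard, with 4 dimercaprol ears, 4 indomethacin ears, 5 octylhomovanillamide ears, 3 ethanol ears and 5 naive ears of 3 animals. The ethanol ears were the left ears of animals 507, 515 and 520. The right ears of these animals had dimercaprol, indomethacin and octylhomovanillamide, in that order, and are among the drug ears. The main fit did not use that pairing. Strain, sex and age are not given in the sources used here. The labels name no pretreatment for mustard-only ears. Pretreated ears therefore differ from them by drug and ethanol at once, which cannot be told apart.

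Chemokines are small secreted proteins that bind receptors on leukocytes and direct their movement into and within tissue. In mouse skin, Ccl2 and Ccl7 draw monocytes through Ccr2, Ccl8 acts through Ccr8, Ccl3 and Ccl4 are made by activated macrophages, and Ccl20 is the ligand of Ccr6. Ccl17 and Ccl22 share the receptor Ccr4, Ccl27a from keratinocytes acts on T cells that carry Ccr10, and Cxcl14 is made by resting epithelium. In RefSeq, Ccl2 and Ccl7 are neighbours on chromosome 11, as are Ccl3 and Ccl4, and Ccl8 lies on the same chromosome between Ccl12 and Ccl1. Ccl22 and Ccl17 flank Cx3cl1 on chromosome 8, while Ccl20 lies on chromosome 1, Ccl27a on chromosome 4 and Cxcl14 on chromosome 13.

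Promoter sequence from RefSeq (GRCm38.p6) was at hand for 7 of the 10 genes, with 9 promoters. There was none for Ccl2, Ccl4 and Ccl7, each called higher when all mustard ears were used, so that these genes were not searched. The 250 bases before each start were searched on both strands for the NF-kB consensus, for TATAAA and for TGANTCA, the site of AP-1 factors. The NF-kB consensus was found in 7.25% of all 32851 promoters of the table, TATAAA in 12.4% and TGANTCA in 6.75%. Each motif had a match in 1 of the 7 chemokine genes searched. Ccl20 held the NF-kB match 80 to 71 bases before its start, on the minus strand relative to the gene. Ccl8 held TATAAA 32 to 27 bases before its start, and 1 start of Ccl27a held TGANTCA 77 to 71 bases before it. The promoters of Ccl20, whose signal rose in mustard ears and which holds the NF-kB match, of Ccl8, whose signal did not pass the test, and of Ccl3, which holds no match, are printed with matches in capitals. They lie at chr1:83116516-83116765 on the plus strand, chr11:82114935-82115184 on the plus strand and chr11:83649379-83649628 on the minus strand. No promoter of these genes held more than 1 match. A match is a description of letters and not a measured binding site.
Ccl20: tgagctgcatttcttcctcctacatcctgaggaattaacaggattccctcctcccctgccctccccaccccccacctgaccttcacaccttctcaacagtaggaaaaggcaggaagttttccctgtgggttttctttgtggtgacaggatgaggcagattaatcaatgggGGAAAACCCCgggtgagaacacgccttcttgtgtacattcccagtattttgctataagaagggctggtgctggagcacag
Ccl8: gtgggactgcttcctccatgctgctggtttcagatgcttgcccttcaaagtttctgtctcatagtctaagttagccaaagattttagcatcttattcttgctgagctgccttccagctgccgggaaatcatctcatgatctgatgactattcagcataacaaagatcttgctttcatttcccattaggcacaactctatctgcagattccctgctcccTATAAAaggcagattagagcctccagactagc
Ccl3: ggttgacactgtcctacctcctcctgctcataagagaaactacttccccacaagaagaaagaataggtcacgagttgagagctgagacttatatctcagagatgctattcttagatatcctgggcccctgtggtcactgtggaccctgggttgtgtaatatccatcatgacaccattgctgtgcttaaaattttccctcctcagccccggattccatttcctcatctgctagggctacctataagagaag

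Values are array signals scaled to a trimmed mean of 500 in each ear, and changes are on the log2 scale of the scaled signal plus 16, which understates the fold change of low signals such as those of Ccl3, Ccl7 and Ccl20. Probe sets with a mean signal of at least 100 over all ears were kept for the tests, 15953 of 22626. This kept 7 of the 10 genes (8 probe sets), with Ccl2 just inside at a mean of 127. Ccl7 (76.6), Ccl20 (57.9) and Ccl3 (29.6) fell below it and were tested in a fit of all 22626 probe sets. The unscaled trimmed means of the arrays lay between 66.3 and 267. The mustard ears of animals 5 and 37 stood apart in RNA quality, with log2 differences between the 3' and 5' Gapdh probe sets of 0.63 and 0.78, against −0.05 to 0.08 in the other mustard ears. The difference was 0.29 ± 0.38 (SD, n = 5) in mustard ears and −0.06 ± 0.13 (SD, n = 21) in methylene chloride ears. Chemokine calls and gene list counts that use mustard ears are given with and without these 2.

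**Figure D1:**
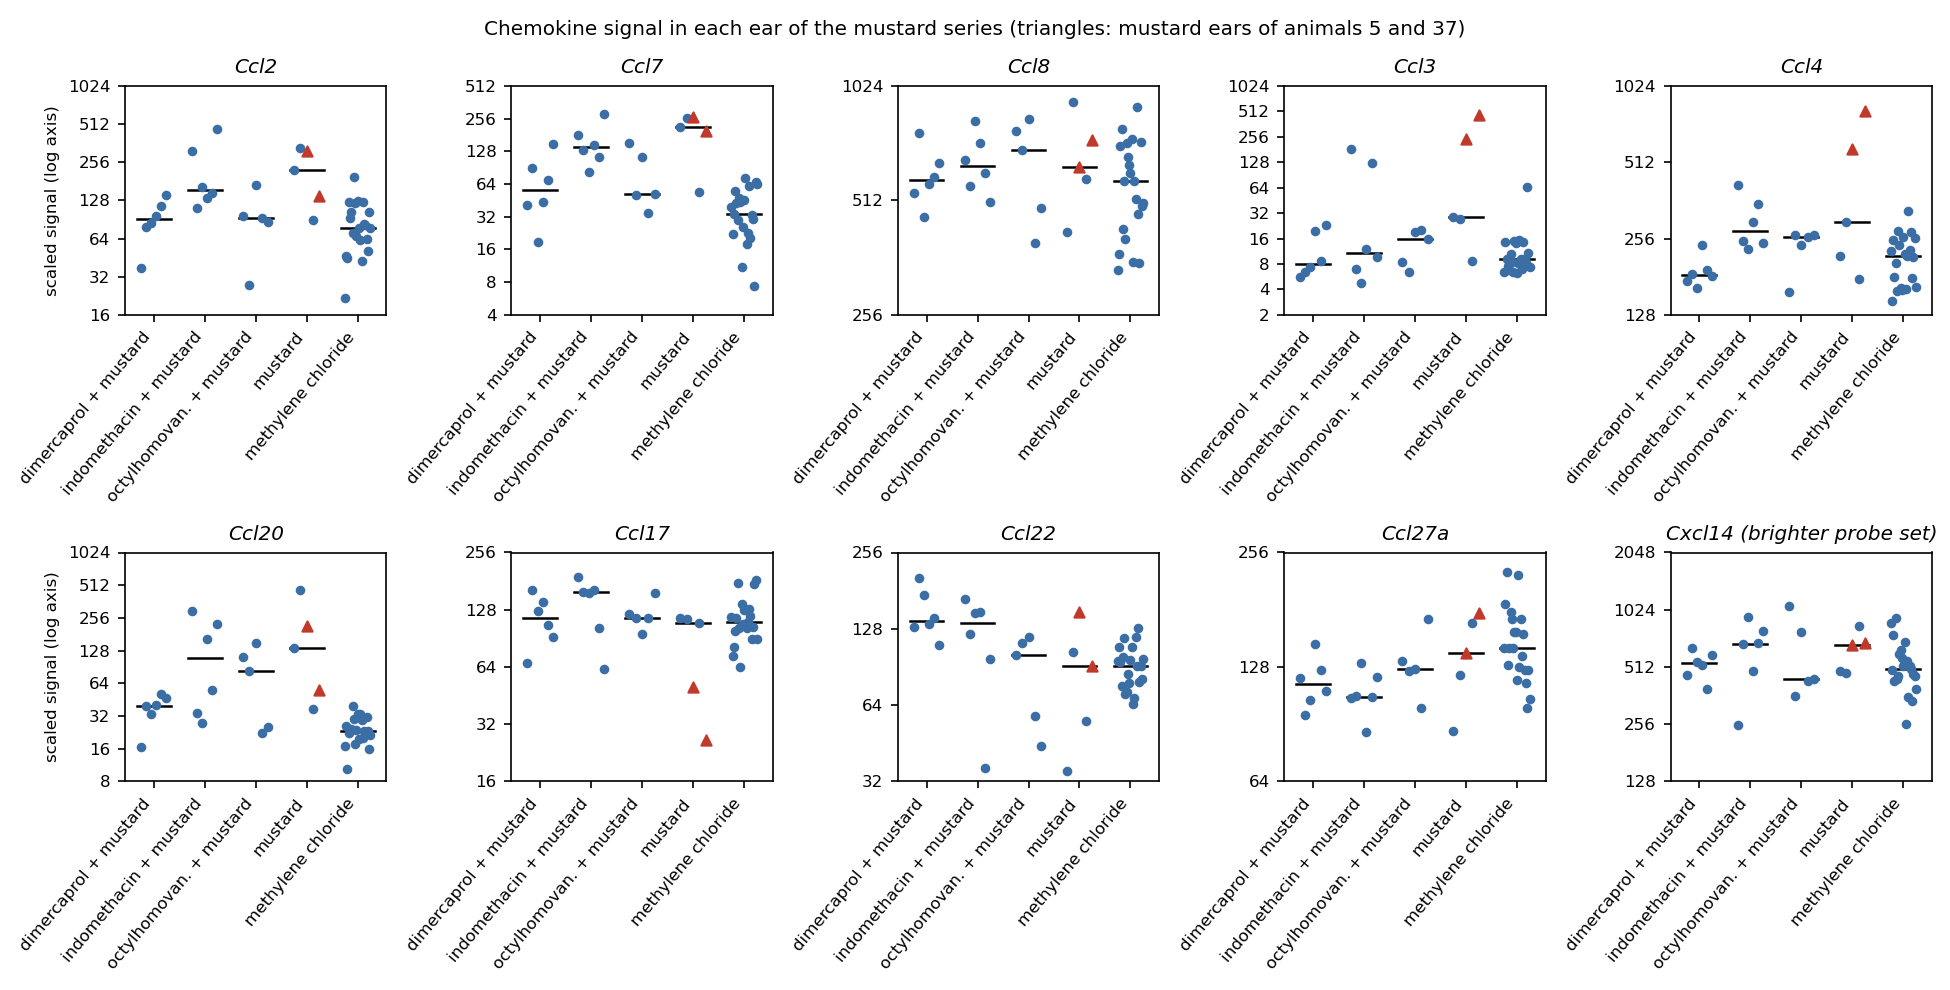
Scaled signal (log axis) of each chemokine in every ear of the mustard series, 1 point per ear, with a line at the group median and triangles for the mustard ears of animals 5 and 37. Groups are dimercaprol, indomethacin and octylhomovanillamide before mustard, mustard, and methylene chloride. Ccl7 and Ccl20 reach 263 and 461 in mustard ears, against at most 72.1 and 39.2 in methylene chloride ears, while Ccl8, Ccl27a and Cxcl14 overlap between all groups.

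Mustard ears had higher RNA levels of the monocyte chemokines Ccl2 and Ccl7 and of the Ccr6 ligand Ccl20 than methylene chloride ears, with log2 changes of 1.18 to 1.93. Ccl3 and Ccl4 were also higher and Ccl17 was lower, but these 3 calls rested on the ears of animals 5 and 37. Ccl8, Ccl22, Ccl27a and Cxcl14 did not pass the test. By limma with Benjamini-Hochberg adjustment and a threshold of 0.05, 42.8% of the kept probe sets were called in this comparison, and 32.7% in the fit of all probe sets. Of the 7 kept genes 2 were called higher and 1 lower; without rescaling of the arrays, where the median of all probe sets was −0.52, 0 were called higher and 3 lower. In skin samples of this kind, fewer cells of a type and less RNA per cell cannot be told apart.

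Ccl7 had signals of 216, 262, 263, 54.4 and 195 in the mustard ears of animals 1, 3, 5, 36 and 37, against a lowest of 7.38, a median of 34.1 and a highest of 72.1 in methylene chloride ears. Of the mustard ears, 4 of 5 lay above every methylene chloride ear, and that of animal 36 lay within their range. The log2 change was 1.93 ± 0.30 (SE, n = 5 and 21; limma adjusted p = 2.57e-06), or 3.81-fold on the scale of signal plus 16. It was 1.71 ± 0.38 (adjusted p = 0.00112) without the ears of animals 5 and 37. With the animal as a block, which compares the ears of the same animal, the limma adjusted p was 0.00142.

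Ccl2, the neighbour of Ccl7 and like it a ligand of Ccr2, had signals of 220.4, 329, 312, 89.2 and 138 in mustard ears in the same order of animals. Methylene chloride ears had a lowest of 21.6, a median of 77.0 and a highest of 197. The mustard ears of animals 1, 3 and 5 lay above all methylene chloride ears, and those of animals 36 and 37 lay within their range. On the log2 scale the change was 1.18 ± 0.30 (SE; limma adjusted p = 0.00144), or 2.26-fold on the scale of signal plus 16. It was 1.13 ± 0.37 (adjusted p = 0.0234) without animals 5 and 37. Without rescaling of the arrays it was 0.48 (adjusted p = 0.0541), in a setting where the median change of all probe sets was −0.52. Ccl8 had signals of 423 to 927 in mustard ears, against 336 to 899.6 in methylene chloride ears, with a log2 change of 0.22 ± 0.18 (SE; limma adjusted p = 0.335).

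Ccl20, which draws Ccr6-bearing dendritic cells and T cells, had signals of 136, 461, 215, 36.9 and 55.8 in the mustard ears of animals 1, 3, 5, 36 and 37. Methylene chloride ears had a lowest of 10.4, a median of 23.4 and a highest of 39.2, so that all mustard ears but that of animal 36 lay above them. The log2 change was 1.87 ± 0.34 (SE; limma adjusted p = 3.21e-05), or 3.66-fold on the scale of signal plus 16. It was 1.99 ± 0.42 (adjusted p = 0.000695) without animals 5 and 37. Ccl2, Ccl7 and Ccl20 kept their calls in all 22 settings that left out 1 ear.

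The macrophage chemokines Ccl3 and Ccl4 were highest in the ears with high Gapdh differences. Ccl3 had signals of 28.7, 27.2, 244, 8.77 and 461 in the mustard ears of animals 1, 3, 5, 36 and 37, against 6.27 to 66.0 with a median of 9.07 in methylene chloride ears. The ears of animals 5 and 37 were the only mustard ears above the range of methylene chloride. The fitted log2 change was 1.74 ± 0.41 (SE; limma adjusted p = 0.000894), and 0.43 ± 0.39 (adjusted p = 0.524) without those 2 ears. Ccl4 had signals of 219, 297, 578, 177 and 817 in mustard ears, against 145 to 328 with a median of 219. The same 2 ears exceeded the methylene chloride range. The log2 change of Ccl4 was 0.71 ± 0.19 (SE; limma adjusted p = 0.00246), and 0.10 ± 0.18 (adjusted p = 0.745) without them. Without the ear of animal 37 alone it was 0.42 (adjusted p = 0.0682). With the animal as a block neither was called (adjusted p = 0.189 for Ccl3 and 0.231 for Ccl4), and with the Gapdh difference as a covariate neither was called (adjusted p = 0.223 and 0.595). The part of RNA quality in these values was not tested beyond that.

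Ccl17, a ligand of Ccr4, had signals of 116, 114, 50.2, 109 and 26.4 in mustard ears, against 63.9 to 184 with a median of 111 in methylene chloride ears. Here the ears of animals 5 and 37 were the 2 below the methylene chloride range, and the other 3 sat near its median. The log2 change was −0.51 ± 0.21 (SE; limma adjusted p = 0.0463), and 0.01 (adjusted p = 0.989) without both ears. It was −0.23 (adjusted p = 0.407) without animal 37 alone and −0.39 (adjusted p = 0.175) without animal 5 alone. With the animal as a block the adjusted p was 0.177, and in the fit of all probe sets it was 0.0593. Ccl22, the other Ccr4 ligand, had 35.2, 104, 149, 55.2 and 91.2 in mustard ears, against 64.6 to 128, so that mustard ears lay on both sides of that range. Its log2 change was −0.16 ± 0.21 (SE; limma adjusted p = 0.557).

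Ccl27a and Cxcl14, both made by resting epidermis, were not called by the probe sets named to them alone. Ccl27a had signals of 87.1 to 177 in mustard ears, against 99.6 to 228 in methylene chloride ears, with a log2 change of −0.11 ± 0.14 (SE; limma adjusted p = 0.551). The 95% interval of that change was −0.39 to 0.17. Another kept probe set that lists Ccl27a with near-identical copies, and cannot be given to 1 gene, was at −0.86 ± 0.23 (adjusted p = 0.00207). It was far brighter, at a mean log2 level of 10.55 in methylene chloride ears, against 7.35 for the probe set of Ccl27a alone. Its level was 9.68 in mustard ears. Before mustard it was 9.79 with dimercaprol, 9.58 with indomethacin and 9.46 with octylhomovanillamide. This shared probe set is not counted among the chemokines in any comparison here. The brighter probe set of Cxcl14 had signals of 474 to 838 in mustard ears, against 257 to 929.8 in methylene chloride ears. Its log2 change was 0.26 ± 0.22 (SE; limma adjusted p = 0.361), and that of the dimmer probe set was 0.29 ± 0.17 (adjusted p = 0.177). For both genes the groups overlapped over most of their range.

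**Figure D2:**
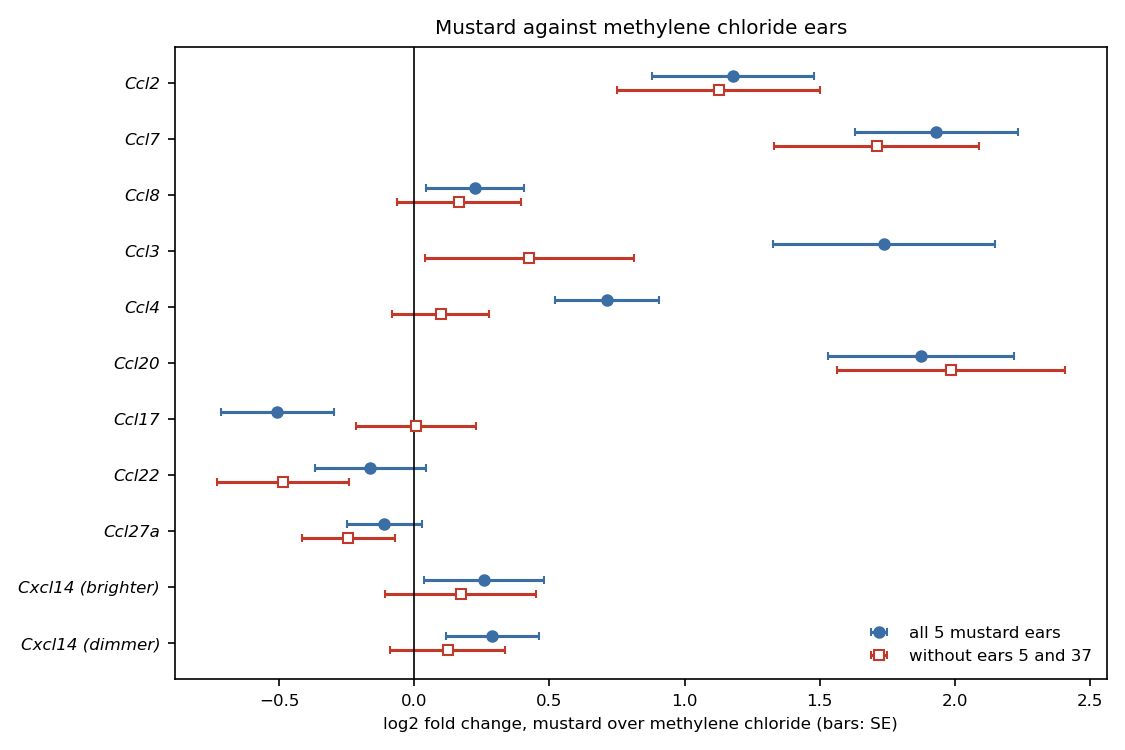
Log2 fold change with its SE (bars) of each chemokine probe set in mustard over methylene chloride ears, with all 5 mustard ears (filled circles) and without those of animals 5 and 37 (open squares). Ccl2, Ccl7 and Ccl20 stay above 1 in both, while Ccl3 lies at 1.74 and 0.43, Ccl4 at 0.71 and 0.10 and Ccl17 at −0.51 and 0.01.

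**Figure D3:**
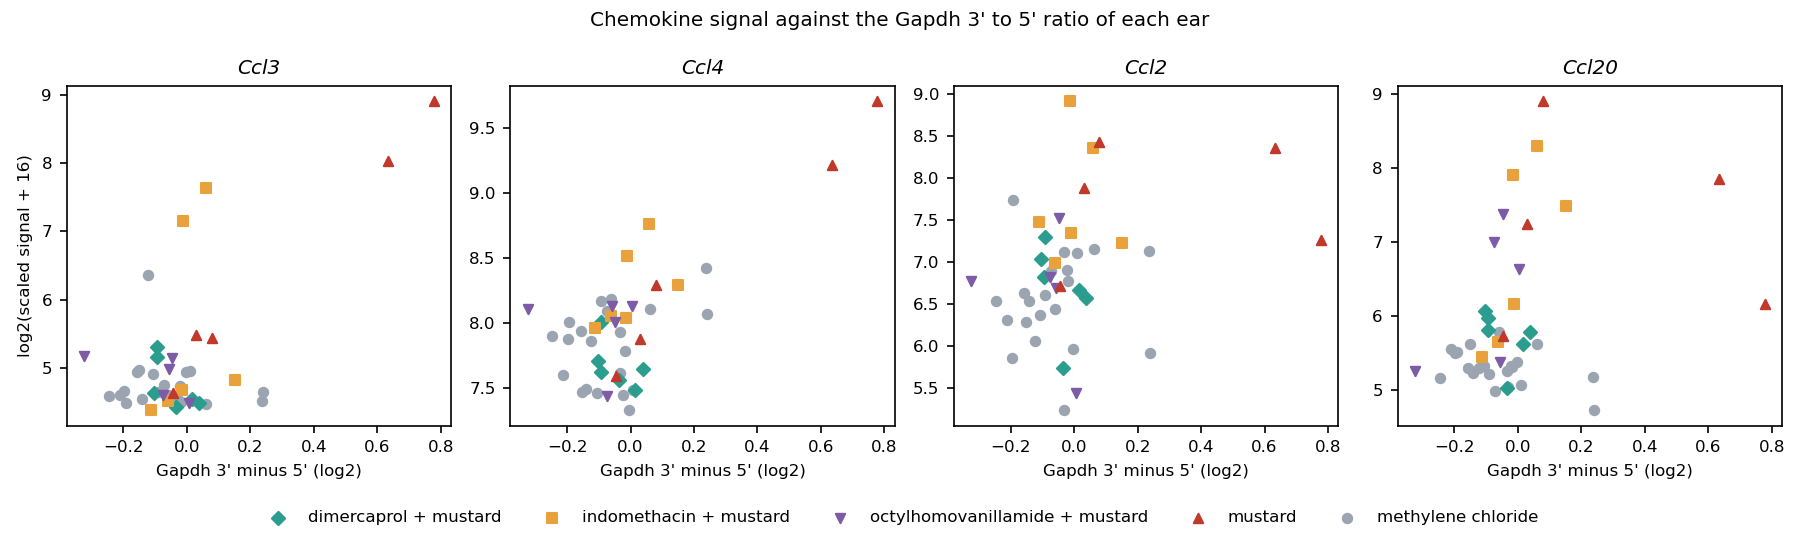
Log2 of the scaled signal plus 16 of Ccl3, Ccl4, Ccl2 and Ccl20 against the log2 difference between the 3' and 5' Gapdh probe sets, 1 point per ear of the mustard series, coloured by group. The mustard ears of animals 5 and 37 lie at 0.63 and 0.78, beyond the highest methylene chloride ear at 0.24, and hold the highest Ccl3 and Ccl4 signals.

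The left and right ears of an animal could be compared in 4 mustard animals. Ccl7 was higher in the right, mustard ear of animals 1, 3, 36 and 37 by 2.07, 2.47, 1.59 and 1.36 on the log2 scale. The ear of animal 36, which had the lowest Ccl7 signal among mustard ears, was still above its own left ear. Ccl2 differed by 2.65, 2.51, 0.65 and 0.37 and Ccl20 by 2.20, 4.18, 0.43 and 1.18, all higher in the right ear. Ccl3 differed by 1.00, 0.78, −1.73 and 4.15, so that the direction was not shared. Ccl4 differed by −0.06, 0.22, −0.27 and 1.61, and Ccl17 by −0.02, 0.41, −0.61 and −2.24, with animal 37 apart from the other 3 in both.

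**Figure D4:**
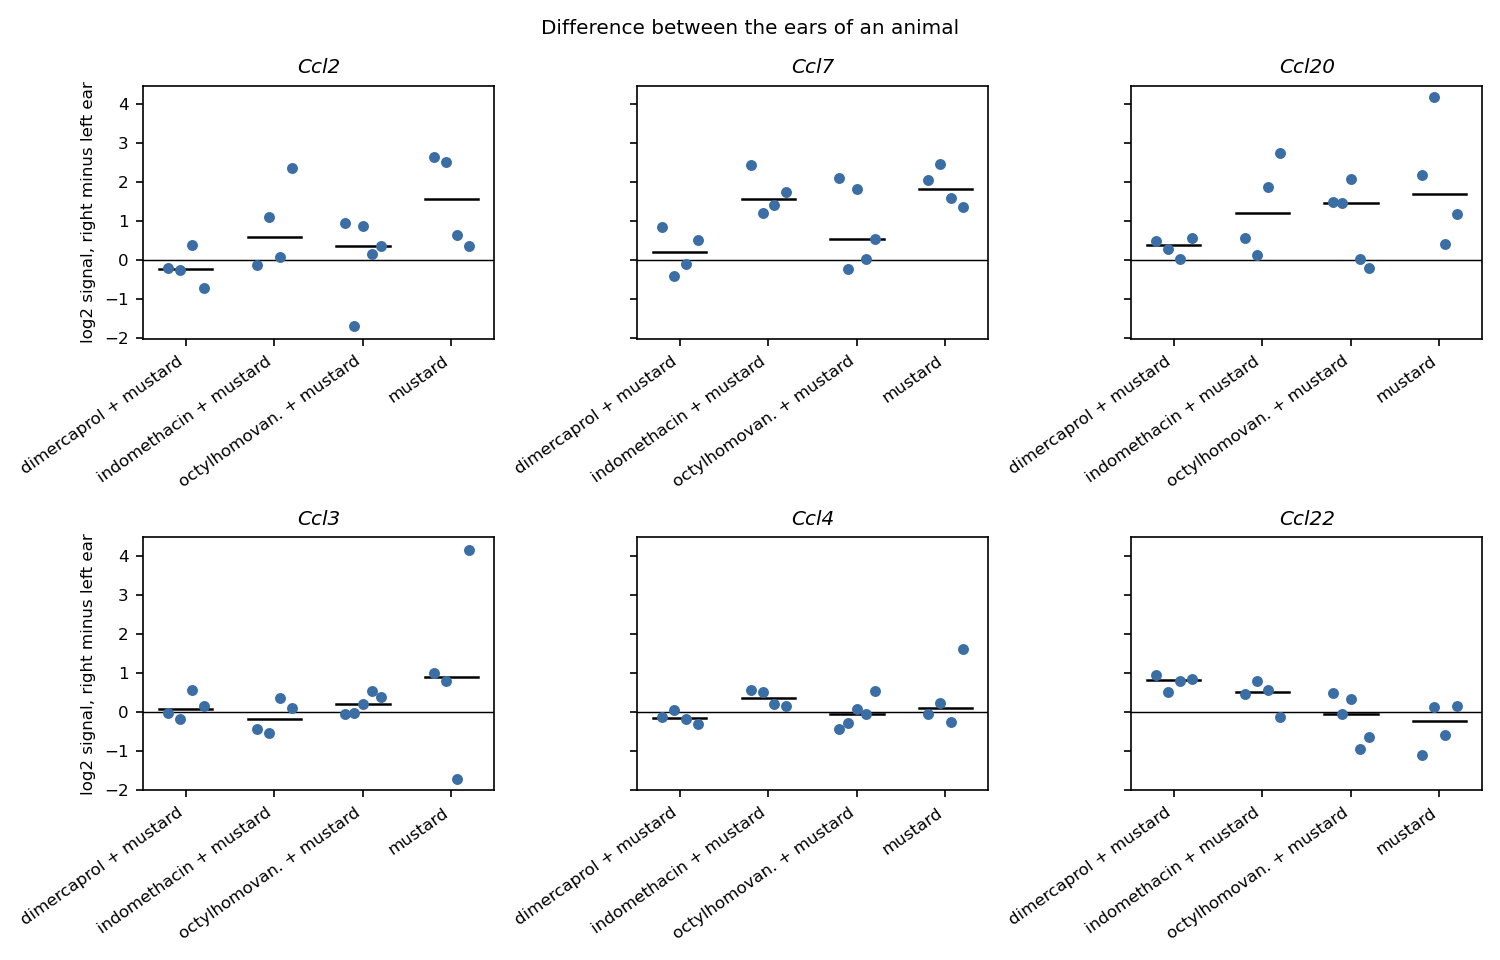
Right minus left log2 signal of Ccl2, Ccl7, Ccl20, Ccl3, Ccl4 and Ccl22, 1 point per animal with a line at the group median, for dimercaprol, indomethacin and octylhomovanillamide before mustard and for mustard alone. Ccl7 lies above 0 in 2 of 4 dimercaprol animals, 4 of 4 indomethacin animals, 4 of 5 octylhomovanillamide animals and 4 of 4 mustard animals.

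Other genes of the chemokine system and its inducers were read from lists, in the same comparison. Of 11 further CC chemokines, 2 passed the signal minimum, and both were higher in mustard ears. These were Ccl9, at 2.04 ± 0.30 (SE; limma adjusted p = 5.94e-07), and Ccl6, at 0.56 ± 0.21 (adjusted p = 0.0257), both myeloid chemokines of mouse. Without the ears of animals 5 and 37 they were at 1.65 (adjusted p = 0.000712) and 0.35 (adjusted p = 0.338). None of the 6 kept receptors and scavengers, of 15 listed, was called with or without those ears. With all ears their median change was −0.19, against −0.0040 over all genes. Of these, Ccr10, the receptor of Ccl27a, was at −0.74 ± 0.39 (limma adjusted p = 0.128) and Ccr6 at 0.15 ± 0.12 (adjusted p = 0.358). Ccr1 and Ccr2 fell below the signal minimum. Of 7 kept cytokines known to induce CC chemokines, 3 were higher, and the median was 0.37, beside 19.3% of all kept probe sets called higher and 42.8% called in either direction. With so few genes, nothing particular to the list is read from that count. These were Il1b at 2.38 ± 0.31 (limma adjusted p = 6.24e-08), Il1f6 at 0.60 ± 0.18 (adjusted p = 0.00711) and Tnf at 0.77 ± 0.32 (adjusted p = 0.0492). Without the ears of animals 5 and 37, 3 of the 7 were again called higher, with a median of 0.60, beside 10.8% of kept probe sets. Il1b was then at 1.56 (limma adjusted p = 0.000374), Il1f6 at 0.75 (adjusted p = 0.0132) and Tnf at 0.60 (adjusted p = 0.301). Tnf was thus no longer among the 3, and another cytokine of the list was. Of 8 kept NF-kB feedback genes, Nfkbiz (0.88 ± 0.18) and Nfkb2 (0.76 ± 0.15) rose and Tnip1 (−0.58 ± 0.10) fell, with a median of 0.04. These 3 kept their calls without the 2 ears.

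Il1b, the inflammatory cytokine, had signals of 573, 1223, 1590.1, 244 and 3549 in the mustard ears of animals 1, 3, 5, 36 and 37, and Ccl9 had 443, 1351, 779, 305 and 1653. The ear of animal 36 was lowest in both, as it was in Ccl2, Ccl7, Ccl20 and Ccl3. Over the 43 ears of the series, log2 signals of Ccl7 and Ccl20 correlated at 0.78, those of Ccl3 and Ccl4 at 0.75, those of Ccl2 and Ccl7 at 0.72 and those of Ccl2 and Ccl20 at 0.70. Without the mustard ears of animals 5 and 37 these were 0.77, 0.46, 0.70 and 0.66 over 41 ears. The ears share their treatment groups and scaling. Within the 21 methylene chloride ears the highest correlation of a pair was 0.45 (Ccl27a and Cxcl14) and the lowest was −0.71 (Ccl3 and Ccl7). There Ccl7 and Ccl20 stood at −0.12, Ccl3 and Ccl4 at −0.20, Ccl2 and Ccl7 at 0.31 and Ccl2 and Ccl20 at 0.15.

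Markers of leukocytes were read in the same comparison, where 19.3% of kept probe sets were called higher and 23.4% lower. Of 12 kept monocyte and macrophage markers 6 were higher in mustard ears and none was lower, with a median of 0.43, among them Clec7a (2.01 ± 0.28), Cd14 (1.48 ± 0.20) and Cd68 (1.16 ± 0.15). Adgre1 and Csf1r were not among the 6. Their summed signal was 4558, 8457, 6394, 5051 and 10713 in the mustard ears of animals 1, 3, 5, 36 and 37, against 4074 to 7736 in methylene chloride ears. Of 6 kept neutrophil markers 5 were higher, with a median of 1.03. Clec4d stands on this list and on that of monocytes and macrophages, so that their counts and sums share a gene. The neutrophil sum was 1643, 1972, 1761, 1049 and 3840, against 567 to 1056 in methylene chloride ears, so that only animal 36 lay within that range. In the separately numbered set of animals it was 1183 to 1717 in naive ears and 1233 to 2129 in ethanol ears, which overlap the mustard ears. Of 7 kept Langerhans and antigen-presenting cell markers 4 were lower (H2-Aa, Cd74, H2-Ab1 and Cd207), with sums of 5453 to 8329 in mustard ears and 8005 to 18006 in methylene chloride ears. Of 5 kept T cell markers, 2 were lower (Cd3g at −0.96 and Cd247 at −0.50) and none was higher, with a median of −0.26 and sums of 1489 to 2137 in mustard ears and 1399 to 2625 in methylene chloride ears. Without the mustard ears of animals 5 and 37, 10.8% of kept probe sets were called higher and 14.1% lower. In that fit 5 monocyte and macrophage and 4 neutrophil markers were called higher, the same 4 Langerhans and antigen-presenting cell markers lower and no T cell marker. No kept marker was at 0 in either group, and the part of cell makeup in the chemokine values was not tested.

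Dimercaprol before mustard gave lower Ccl2, Ccl7, Ccl20, Ccl3 and Ccl4 and higher Ccl22 than mustard alone. The calls of Ccl20 and Ccl22 remained without the mustard ears of animals 5 and 37, and the other 4 did not. In the fit without these ears 8.88% of kept probe sets were called. With all ears 26.8% of kept probe sets were called, and 19.3% of all probe sets. Of the 7 kept genes 1 was called higher and 2 lower, and without rescaling, where the median of all probe sets was 0.76, 4 higher and 0 lower. In that setting Ccl2 was at −0.22 (adjusted p = 0.443), Ccl7 at −0.45 (adjusted p = 0.0893) and Ccl20 at −0.61 (adjusted p = 0.0652). The comparison shares its mustard ears with the comparison against methylene chloride, so that the values of both are given side by side and not as separate evidence.

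Ccl20 had signals of 16.6 to 51.2 with a median of 39.7 in the 6 dimercaprol ears, against 136, 461, 215, 36.9 and 55.8 in mustard ears. All dimercaprol ears lay below all mustard ears but that of animal 36. On the log2 scale the change was −1.46 ± 0.42 (SE; limma adjusted p = 0.0104). It was −1.57 (adjusted p = 0.0439) without animals 5 and 37, and the call was lost without animal 3 (−1.03, adjusted p = 0.0790). Against methylene chloride the dimercaprol ears were at 0.41 ± 0.32 (adjusted p = 0.642).

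Ccl22, a dendritic cell and macrophage chemokine for Ccr4-bearing T cells, had signals of 131, 203, 175, 134, 141 and 110.2 in dimercaprol ears, against 35.2, 104, 149, 55.2 and 91.2 in mustard ears. The groups overlapped through the ear of animal 5 alone. The log2 change was 0.77 ± 0.25 (SE; limma adjusted p = 0.0185), and 1.10 (adjusted p = 0.0122) without animals 5 and 37. Without the mustard ear of animal 1 it was 0.55 (adjusted p = 0.0985). Against methylene chloride ears it was 0.61 ± 0.19 (adjusted p = 0.0692). The right, mustard ear was above the left in 4 of 4 dimercaprol animals, by 0.93, 0.51, 0.79 and 0.84, and by −1.12, 0.11, −0.59 and 0.14 in mustard animals.

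Ccl2 had signals of 37.2, 79.5, 85.7, 97.2, 115 and 142 in dimercaprol ears, against 220.4, 329, 312, 89.2 and 138 in mustard ears. Ccl7 had 41.3, 90.1, 18.9, 43.8, 70.2 and 149 in dimercaprol ears, against 216, 262, 263, 54.4 and 195. The mustard ears of animals 1, 3 and 5 lay above every dimercaprol ear in both genes, and in Ccl7 that of animal 37 as well. The fitted log2 change was −1.04 ± 0.37 (SE; limma adjusted p = 0.0298) for Ccl2 and −1.36 ± 0.37 (adjusted p = 0.00665) for Ccl7. Without animals 5 and 37 they were −0.99 (adjusted p = 0.141) and −1.14 (adjusted p = 0.114), values close to those of all ears in fits with fewer ears. Ccl2 also lost its call without the mustard ear of animal 1, 3 or 5 or the dimercaprol ear of animal 6. Against methylene chloride, the dimercaprol ears were at 0.14 ± 0.28 (adjusted p = 0.864) in Ccl2 and 0.57 ± 0.28 (adjusted p = 0.378) in Ccl7.

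Ccl3 had signals of 5.61 to 23.4 in dimercaprol ears, against 8.77 to 461 in mustard ears, a log2 change of −1.74 ± 0.50 (SE; limma adjusted p = 0.0111). Without animals 5 and 37 it was −0.42 (adjusted p = 0.668), and the call was lost without either of them. Ccl4 had signals of 163 to 241 in dimercaprol ears, against 177 to 817, a log2 change of −0.86 ± 0.23 (SE; limma adjusted p = 0.00509). It was −0.25 (adjusted p = 0.501) without both ears, was not called without animal 37, and was at 0.0021 without rescaling. With the animal as a block none of the 6 chemokines was called, in a fit with fewer ears. The log2 changes were −1.74 for Ccl2 (limma adjusted p = 0.147), −1.66 for Ccl7 (adjusted p = 0.107), −1.65 for Ccl20 (adjusted p = 0.264) and 1.13 for Ccl22 (adjusted p = 0.0988). Ccl3 was at −0.93 (adjusted p = 0.601) and Ccl4 at −0.52 (adjusted p = 0.382). Ccl8, Ccl17, Ccl27a and Cxcl14 were not called. Against methylene chloride no chemokine was called in dimercaprol ears, where 3.05% of kept and 1.78% of all probe sets were.

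Il1b was lower in dimercaprol ears than in mustard ears, at −2.48 ± 0.38 on the log2 scale (limma adjusted p = 1.59e-05), the 1 of 7 kept inducing cytokines called. Ccl9 was at −0.93 ± 0.37 (adjusted p = 0.0538). Of the monocyte and macrophage markers 5 of 12 were lower, among them Clec4d, Cd14 and Clec7a, and of the neutrophil markers 4 of 6, beside 11.2% of all kept probe sets called lower. Clec4d stands on both lists and is counted in each. Without the mustard ears of animals 5 and 37, where 3.18% were, Il1b was at −1.66 (adjusted p = 0.00495), and 3 markers of each list were called lower. The monocyte and neutrophil signals were 3252 to 5985 and 644 to 988 in dimercaprol ears, against 4558 to 10713 and 1049 to 3840 in mustard ears. The neutrophil sums did not overlap, and the part of cell makeup in the chemokine differences was not tested.

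No chemokine was called between ears given indomethacin before mustard and ears given mustard alone, where 1.8% of kept probe sets and 0.685% of all probe sets were. The log2 change of Ccl2 was −0.01 (95% interval −0.75 to 0.73; limma adjusted p = 0.990), that of Ccl7 −0.26 (−0.998 to 0.49; adjusted p = 0.772) and that of Ccl20 −0.36 (−1.20 to 0.49; adjusted p = 0.714). Ccl3 was at −0.96 (−1.98 to 0.046; adjusted p = 0.321), Ccl17 at 0.71 (0.20 to 1.22; adjusted p = 0.111) and Ccl22 at 0.41 (adjusted p = 0.370). Without rescaling, where the median of all probe sets was 0.45, Ccl17 (0.77, adjusted p = 0.0182) and Ccl22 (0.64, adjusted p = 0.0261) were called. These intervals hold sizable differences, so that the groups are not shown to be alike. The Il1b signal was lower in indomethacin ears, at −1.37 ± 0.38 (adjusted p = 0.0489). It was at −0.55 (adjusted p = 0.775) without the mustard ears of animals 5 and 37, where 0% of kept probe sets were called. No kept monocyte or neutrophil marker was called.

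Against methylene chloride, 35.9% of kept and 26.4% of all probe sets were called in indomethacin ears. Of the 7 kept genes 2 were called higher and 1 lower, and without rescaling 1 higher and 0 lower. Ccl7 had signals of 181, 131, 81.8, 147, 113 and 282 in indomethacin ears, against 7.38 to 72.1 in methylene chloride ears, with no overlap. The log2 change was 1.68 ± 0.28 (SE; limma adjusted p = 1.06e-05). With the animal as a block it was 1.71 (adjusted p = 0.00324). The right ear was above the left in 4 of 4 animals, by 2.45, 1.22, 1.40 and 1.76. Ccl2 had 313, 111, 163, 134, 146 and 465, against 21.6 to 197, so that 2 of 6 ears lay above the methylene chloride range. Its log2 change was 1.17 ± 0.28 (limma adjusted p = 0.000915). Ccl20 had 298, 34.0, 27.7, 164, 55.3 and 223, against 10.4 to 39.2, with 4 of 6 ears above that range. Its log2 change was 1.52 ± 0.32 (limma adjusted p = 0.00027). With the animal as a block Ccl2 was at 0.86 (adjusted p = 0.200) and Ccl20 at 1.33 (adjusted p = 0.0920), neither called.

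Ccl4 and Ccl27a were called in the same comparison by a narrow margin. Ccl4 had signals of 417, 249.95, 234, 298, 349 and 247 in indomethacin ears, against 145 to 328, a log2 change of 0.45 ± 0.18 (SE; limma adjusted p = 0.0458). It lost its call without the indomethacin ear of animal 16 (adjusted p = 0.173), 19 (adjusted p = 0.0763) or 21 (adjusted p = 0.105). Ccl27a had 86.0 to 131 in indomethacin ears, against 99.6 to 228, a log2 change of −0.38 ± 0.13 (limma adjusted p = 0.0176). Without the ear of animal 19 it was −0.32 (adjusted p = 0.0676), and with the animal as a block Ccl27a was at −0.49 (adjusted p = 0.137) and Ccl4 at 0.35 (adjusted p = 0.308). Ccl3 had 183 and 125 in the ears of animals 16 and 21 and 4.80 to 12.2 in the other 4, against 6.27 to 66.0 in methylene chloride ears. Its log2 change was 0.77 (limma adjusted p = 0.142). Ccl9 rose by 1.76 ± 0.28 (adjusted p = 3.13e-06) and Il1b by 1.01 ± 0.29 (adjusted p = 0.00500), and 4 of 6 kept neutrophil markers were higher, beside 16.3% of all kept probe sets. The neutrophil sum was 999.7 to 1833 in indomethacin ears and 567 to 1056 in methylene chloride ears. Other lists changed too in the fit without the mustard ears of animals 5 and 37, where 16.8% of kept probe sets were called higher and 20.4% lower. Of 12 monocyte and macrophage markers 5 were higher and 1 lower. Of 7 Langerhans and antigen-presenting cell markers 1 was higher and 3 lower, and of 5 T cell markers 3 were lower. The part of cell makeup in the chemokine values was not tested.

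Octylhomovanillamide before mustard gave lower Ccl2, Ccl7 and Ccl3 than mustard alone, by calls near the threshold. In this comparison 17.1% of kept and 11.8% of all probe sets were called. Of the 7 kept genes 0 were called higher and 1 lower, and without rescaling, where the median of all probe sets was 0.63, 3 higher and 0 lower. Ccl2 was then at −0.33 (adjusted p = 0.274), Ccl7 at −0.37 (adjusted p = 0.196) and Ccl3 at −0.69 (adjusted p = 0.0321). Ccl2 had signals of 97.1, 27.4, 168, 93.5 and 86.9 in octylhomovanillamide ears, against 220.4, 329, 312, 89.2 and 138 in mustard ears. Ccl7 had 152, 50.7, 114, 34.4 and 52.0, against 216, 262, 263, 54.4 and 195, with the mustard ear of animal 36 alone inside the octylhomovanillamide range. On the log2 scale the change was −1.08 ± 0.38 (SE; limma adjusted p = 0.0441) for Ccl2, −1.15 ± 0.38 (adjusted p = 0.0426) for Ccl7 and −1.61 ± 0.52 (adjusted p = 0.0370) for Ccl3. Without animals 5 and 37 the fit held fewer ears, and 0.495% of kept probe sets were called, against 17.1% with them. Ccl2 was then at −1.03 (adjusted p = 0.225), Ccl7 at −0.93 (adjusted p = 0.336) and Ccl3 at −0.30 (adjusted p = 0.827). In the fit with the animal as a block they were at −1.41 (adjusted p = 0.266), −1.01 (adjusted p = 0.354) and −0.85 (adjusted p = 0.649). In the fit of all probe sets Ccl2 was not called (adjusted p = 0.0577). The calls were kept in 14 of 22 settings that left out 1 ear for Ccl2, in 15 for Ccl7 and in 16 for Ccl3. Losses for Ccl2 came without the mustard ear of animal 1, 3, 5 or 37 or the octylhomovanillamide ear of animal 27, 28, 30 or 33, with log2 changes of −1.20 to −0.78. Losses for Ccl7 came without the mustard ear of animal 1, 3, 5 or 37 or the octylhomovanillamide ear of animal 28, 30 or 33. Losses for Ccl3 came without the mustard ear of animal 5 or 37 or the octylhomovanillamide ear of animal 27, 28, 30 or 33.

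Ccl20 had signals of 112, 83.1, 150.4, 22.1 and 25.4 in octylhomovanillamide ears, a log2 change of −0.85 ± 0.44 (SE; limma adjusted p = 0.209) against mustard ears. Of these ears 3 lay above the methylene chloride range and 2 within it. Ccl4 was at −0.57 (limma adjusted p = 0.0990). Against methylene chloride no chemokine was called in octylhomovanillamide ears, where 2.76% of kept and 1.75% of all probe sets were, with Ccl20 at 1.02 ± 0.34 (adjusted p = 0.135) and Ccl7 at 0.78 ± 0.30 (adjusted p = 0.228). Il1b was lower than in mustard ears, at −2.02 ± 0.39 (adjusted p = 0.00121), and at −1.20 (adjusted p = 0.103) without the mustard ears of animals 5 and 37. Of the neutrophil markers 4 of 6 were lower, beside 6.61% of all kept probe sets. Without those 2 ears 0 of 6 were lower, beside 0.0815% of all kept probe sets. With all ears the sums were 803 to 1180.5 in octylhomovanillamide ears and 1049 to 3840 in mustard ears.

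The drugs were compared with each other in 3 pairs, each at its own dose and volume. Between dimercaprol and indomethacin before mustard 10.5% of kept and 6.82% of all probe sets were called. Ccl2 had a median signal of 91.4 in dimercaprol ears and 154 in indomethacin ears, with a log2 difference of −1.03 ± 0.35 (SE; limma adjusted p = 0.0493). Ccl7 had medians of 57.0 in dimercaprol ears and 139 in indomethacin ears, with a difference of −1.11 ± 0.35 (adjusted p = 0.0462). The ears of both drugs overlapped in both genes. These calls are near the threshold, and with each ear left out in turn they were kept in 11 of 22 settings for Ccl2 and 14 of 22 for Ccl7, with differences of −1.18 to −0.79 and −1.33 to −0.88. Neither was called with the animal as a block, at −1.05 (adjusted p = 0.495) for Ccl2 and −1.49 (adjusted p = 0.196) for Ccl7. The same held with the Gapdh covariate, at −1.03 (adjusted p = 0.0550) and −1.06 (adjusted p = 0.0539), and with array brightness as a covariate, at −0.89 (adjusted p = 0.138) and −0.88 (adjusted p = 0.165). Ccl20 was at −1.11 ± 0.40 (adjusted p = 0.0856) and Ccl4 at −0.60 ± 0.22 (adjusted p = 0.0765).

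Between dimercaprol and octylhomovanillamide before mustard limma called 0 of 15953 kept probe sets (0%), and 332 had an unadjusted p under 0.05. The log2 difference of Ccl2 was 0.04 (95% interval −0.70 to 0.78), that of Ccl7 −0.21 (−0.95 to 0.53) and that of Ccl22 0.73 (0.22 to 1.23; limma unadjusted p = 0.00585). Between octylhomovanillamide and indomethacin 2.07% of kept probe sets were called and no chemokine, with Ccl2 at −1.07 ± 0.37 (limma adjusted p = 0.0952). The interval of that difference was −1.81 to −0.33. None of these intervals shows that a pair of drugs acts alike.

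In animals without mustard, no chemokine differed by the test between a drug and ethanol, nor between ethanol and naive ears. In each of these 4 comparisons limma called 0 of 15953 kept probe sets (0%). Unadjusted p-values under 0.05 numbered 773 for dimercaprol, 1117 for indomethacin, 996 for octylhomovanillamide and 501 for ethanol against naive. The counts for dimercaprol and for ethanol against naive lay below what a threshold of 0.05 gives by chance. Ccl22 had signals of 399, 365, 157 and 626 in dimercaprol ears, against 281, 143 and 122 in ethanol ears. The dimercaprol ears were highest of the 10 groups in this gene, and 3 of 4 lay above every ethanol ear. The log2 change was 0.96 ± 0.38 (SE; limma unadjusted p = 0.0203, adjusted p = 0.986).

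Ccl20 had 66.6, 39.7, 57.8 and 79.9 in dimercaprol ears, against 33.7, 31.2 and 39.8 in ethanol ears, a log2 change of 0.57 ± 0.22 (limma unadjusted p = 0.0176, adjusted p = 0.999). Among the dimercaprol ears 3 of 4 lay above all ethanol ears. Ccl17 had 379.8, 373, 315 and 192 in indomethacin ears, against 146, 244 and 169.8 in ethanol ears, with 3 of 4 above the ethanol range. In 21 methylene chloride ears against the naive animals 21.5% of kept probe sets were called and no chemokine, with Ccl7 at −0.92 ± 0.37 (limma adjusted p = 0.0719) and Ccl2 at −0.77 ± 0.36 (adjusted p = 0.117). These are different sets of animals, so that set and treatment cannot be told apart.

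**Figure D5:**
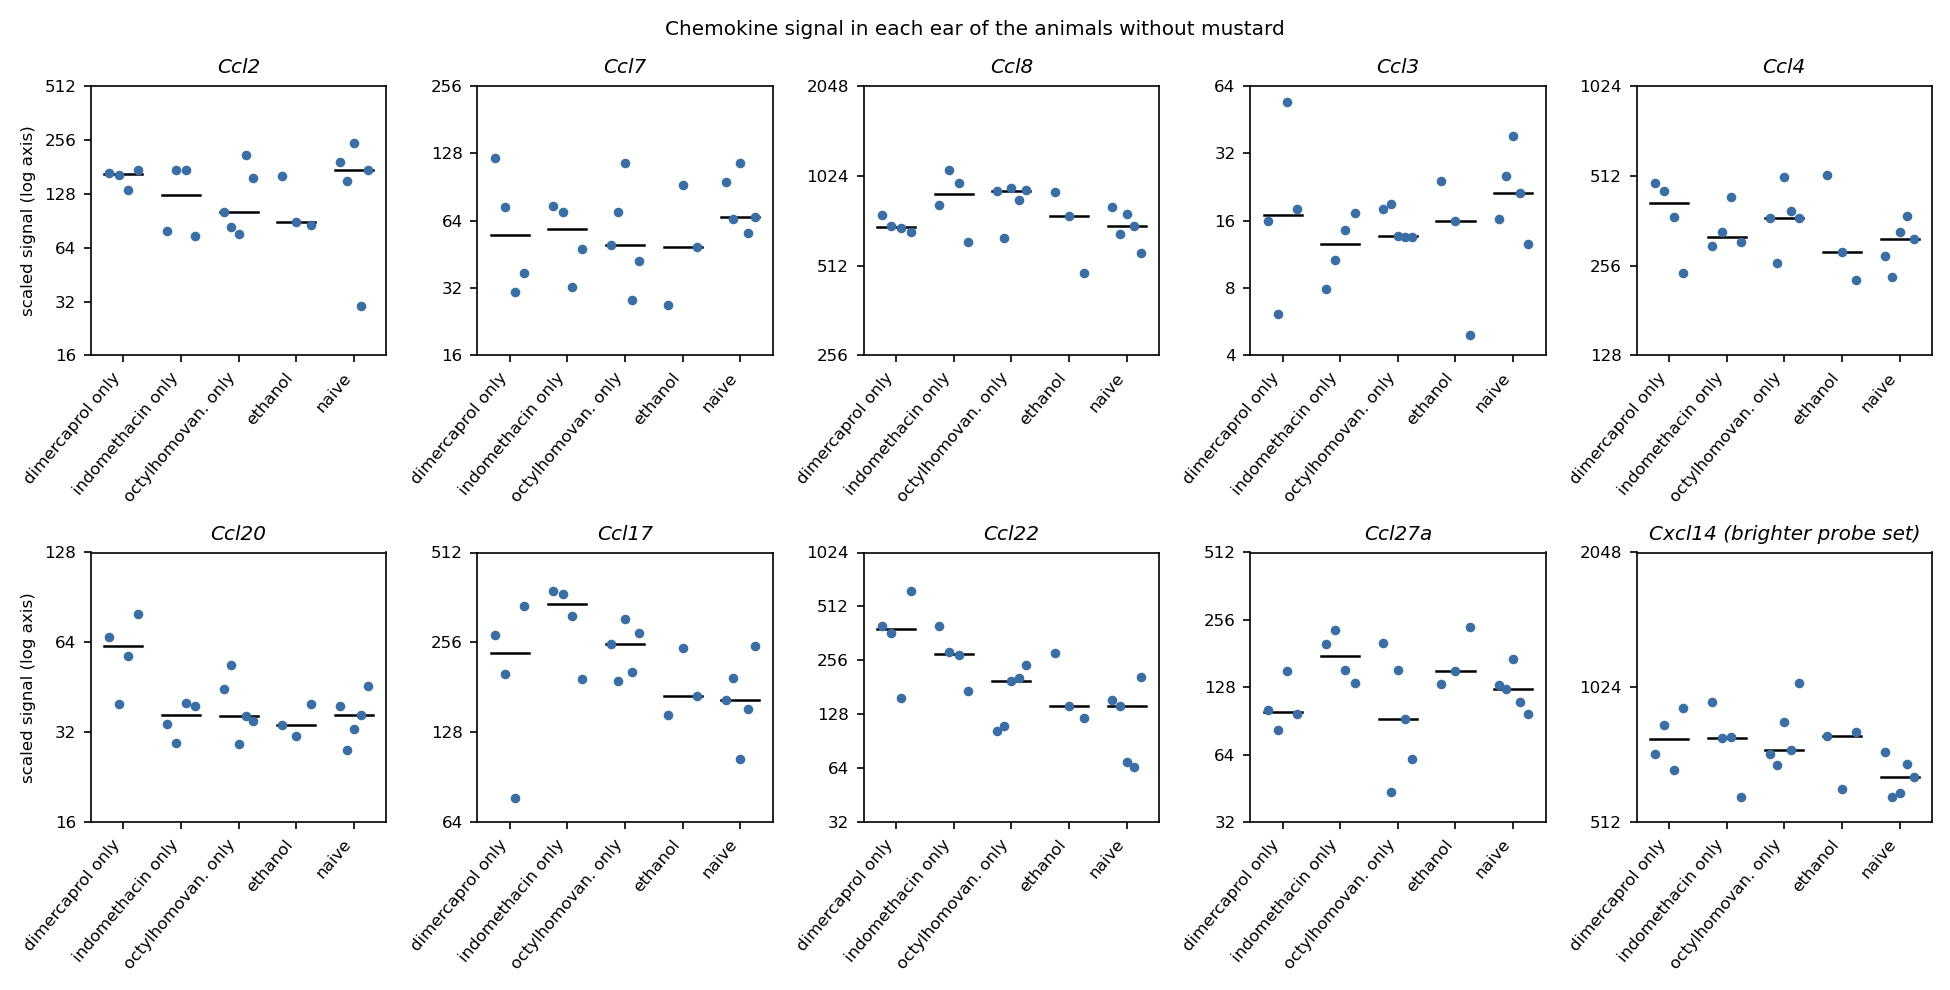
Scaled signal (log axis) of each chemokine in every ear of the animals without mustard, 1 point per ear, with a line at the group median, for dimercaprol, indomethacin and octylhomovanillamide alone, ethanol and naive ears. Ccl22 reaches 626 in a dimercaprol ear, against at most 281 in ethanol ears, and the ears of each drug overlap the ethanol ears in every panel.

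Across all 10 groups, Ccl2, Ccl7, Ccl20 and Ccl3 had their highest mean level in mustard ears and their second in indomethacin ears before mustard. The groups without mustard are a separately numbered set of animals, so that set and treatment cannot be told apart in these orders. The mean log2 level of Ccl2 was 7.72 ± 0.75 (SD, n = 6) in indomethacin ears before mustard and 7.73 ± 0.73 (SD, n = 5) in mustard ears, which did not differ beyond their spread. Next came ears with dimercaprol alone at 7.45 ± 0.15 and naive animals, their ears averaged, at 7.32 ± 0.67 (SD, n = 3). Both lay within the spread of mustard ears. Ccl2 was lowest at 6.55 ± 0.57 (SD, n = 21) in methylene chloride ears. Ccl7 stood at 7.34 ± 0.55 in indomethacin ears before mustard and 7.59 ± 0.83 in mustard ears. Naive animals were next at 6.59 ± 0.28 (SD, n = 3) and methylene chloride ears last at 5.66 ± 0.53. The step between indomethacin before mustard and naive was the one neighbouring gap of Ccl7 larger than the SD of both groups. Ccl20 stood at 6.33 ± 0.96 in octylhomovanillamide ears before mustard, 6.82 ± 1.22 in indomethacin ears before mustard and 7.18 ± 1.28 in mustard ears, steps smaller than those SDs. It was last at 5.30 ± 0.25 in methylene chloride ears.

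Ccl4, Ccl17 and Ccl22 were ordered otherwise, with their highest levels in animals without mustard. The same held for Ccl8, Ccl27a and both probe sets of Cxcl14, so that this is not particular to those 3 genes. Ccl4 was lowest at 7.67 ± 0.18 in dimercaprol ears before mustard, against 8.54 ± 0.89 in mustard ears, and highest at 8.61 ± 0.43 in ears with dimercaprol alone. Ccl17 was at 8.33 ± 0.43 in ears with indomethacin alone and lowest at 6.50 ± 0.74 in mustard ears. Ccl22 was at 8.51 ± 0.79 in ears with dimercaprol alone. Its lowest 3 levels, within their spread of each other, were 6.61 ± 0.52 in octylhomovanillamide ears before mustard, 6.57 ± 0.66 in mustard ears and 6.73 ± 0.24 in methylene chloride ears.

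Outside the 10 genes, those most like each kept chemokine over the 43 ears of the mustard series were taken by Pearson correlation of log2 signals. For Ccl2 they were S100a10 (0.78), Akirin1 (0.78) and Odc1 (0.77), and for Ccl4 they were Clec4d (0.81), Il1b (0.76) and Cd300lf (0.74). For Ccl27a they were Ephx2 (0.79), Cbr2 (0.76) and Arl3 (0.75), and for Cxcl14 Ctdnep1 (0.70), Ncln (0.68) and Epn1 (0.66). The highest was 0.65 for Ccl8 (Dpep1), 0.59 for Ccl17 (Atp6v0d1) and 0.56 for Ccl22 (Jmjd1c). Without the mustard ears of animals 5 and 37, Clec4d, Il1b and Cd300lf stood at 0.58, 0.50 and 0.60 with Ccl4, and Atp6v0d1 at 0.26 with Ccl17. These are descriptions over ears that share groups and scaling.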

How the data were processed

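Total RNA (10 µg) from 8 mm ear biopsies was hybridized to Affymetrix mouse arrays. The authors deposited linear intensity signals per probe set, computed with MAS5 per the submitters' processing notes. Its version and scaling target are not given in the sources used here, and no genome build was used for the signals here. Array B holds no probe set of these genes and is not used here. Genes were named through the platform annotation, by which 20380 of 22626 probe sets had 1 gene, 691 several and 1555 none.

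With control probe sets left out, signals of each array were multiplied to give a 2% trimmed mean of 500, and the log2 signal, after addition of 16, was fitted with limma 3.58.1 (lmFit, eBayes with trend) in R 4.3.3 with its data.table package (version 1.17.8). 2-sided p-values were adjusted by Benjamini-Hochberg across all probe sets of a fit. The 43 ears of the mustard series shared 1 fit, and ears without mustard another, with naive ears averaged per animal. Methylene chloride against naive used all 64 ears. The fit was tested on simulated data. No arrays were identical, and arrays give no depth, so that the number of ears limits the precision. P-values measure the spread between ears, 1 ear of a group per animal but for naive.

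All 10 genes are named. From each list the members with the smallest adjusted p, up to 4, or all called where 5 or fewer, could be named, and for likeness the 3 genes with the highest Pearson r. Members and lists were chosen with earlier results of these data known. Labels give both ears of an animal the same number, which pairs them. Over 17 pairs, deviations from group means correlated at 0.164 on average (−0.0943 to 0.439; 9 pairs over 0.1), against −0.0061 for ears of different animals. Alternatives were no rescaling, quantile normalization, a pseudocount of 64, no signal minimum or one of 300, no trend in eBayes, a random or fixed block for the animal, Gapdh or array brightness as a covariate, and leaving out ears.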

Additional observations from a re-analysis of the deposited data

Results flagged for a closer look

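In groups of 4 to 10 ears, a lowest or highest ear far from the others was looked for in 77 groups of values and found in 3. Chance gives about 1 in 20. Ccl7 was lowest in the mustard ear of animal 36, at a signal of 54.4438, with the next at 195 and the highest at 263. Its left ear was lower still, by 1.59 on the log2 scale. Ccl4 was lowest in the ear of animal 27 given octylhomovanillamide before mustard, at 157.447, with the next at 241 and the highest at 265. Ccl8 was lowest in the ear of animal 517 given octylhomovanillamide alone, at 632.962, with the next at 851 and the highest at 932.

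The effects of 2 drugs before mustard differed by a test of the difference itself for 2 chemokines. In that comparison 10.5% of kept and 6.82% of all probe sets were called, so that nothing particular to the chemokines is read from the count. Ccl2 was at −1.02944 on the log2 scale in dimercaprol ears relative to indomethacin ears (limma adjusted p = 0.0493), and Ccl7 at −1.10587 (adjusted p = 0.0462). Among the settings that leave out 1 ear, adjusted p-values ranged over 0.0317 to 0.179 for Ccl2 and 0.0144 to 0.159 for Ccl7. Neither was called with the animal as a block (−1.05, adjusted p = 0.495, and −1.49, adjusted p = 0.196), with the Gapdh covariate (adjusted p = 0.0550 and 0.0539) or with array brightness as a covariate (adjusted p = 0.138 and 0.165).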

How the results depend on the processing

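Counts are of chemokines called by limma, of 7 kept genes, or of all 10 with no signal minimum and of 2 with a minimum of 300. For mustard against methylene chloride the count was 3. It was 5 with no signal minimum, 0 with a minimum of 300, and 1 with the Gapdh covariate, with array brightness as a covariate, with the animal as a fixed replicate block, or without the mustard ears of animals 5 and 37; leaving out 1 ear gave 1 to 3. For dimercaprol before mustard against mustard (3) these counts were 6, 0, 1, 0, 0 and 1, in that order, and 1 to 3. For octylhomovanillamide (1) they were 2, 0, 0, 0, 0 and 0, with 3 without rescaling, and 0 to 2. For indomethacin (0) it was 2 without rescaling and 0 to 1. Against methylene chloride, the dimercaprol count (0) was 1 without rescaling, with quantile normalization or with a pseudocount of 64, and 0 to 1. The indomethacin count (3) was 1 without rescaling, 0 with a minimum of 300 and 0 with the replicate block, and 1 to 3. For dimercaprol against indomethacin (1) it was 0 without rescaling, with a minimum of 300, without trend, with brightness or with the replicate block, 2 without animals 5 and 37, and 0 to 2. For octylhomovanillamide against indomethacin (0) it was 0 to 1. The other comparisons had 0 throughout. The share of all kept probe sets called moved with the setting too. Without animals 5 and 37 it was 24.9% for mustard against methylene chloride, from 42.8%. Against mustard it was 8.88% for dimercaprol, from 26.8%, and 0.495% for octylhomovanillamide, from 17.1%. For dimercaprol against indomethacin it was 11.5%, from 10.5%. Changes in these counts are therefore not read as particular to the chemokines.

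Ccl17 in mustard ears turned to 0.0062 without animals 5 and 37. Without rescaling, where the median of all probe sets was 0.76 for dimercaprol and 0.63 for octylhomovanillamide against mustard, these values, called in at least 1 of both settings, changed sign: Ccl27a 0.49 and 0.46, Ccl8 0.72 and 0.63, and for dimercaprol Ccl4 0.0021 and the dimmer Cxcl14 probe set 0.50. Others, called in neither setting, changed sign too, among them Ccl4 (0.12) for octylhomovanillamide and Ccl8 (−0.36) for mustard against methylene chloride. The cause was not tested beyond these settings. The random replicate block changed no call of a chemokine in the mustard series. Of the values of single probe sets under all alternatives, 562 were called in the same direction in both fits, 4105 were called in neither, of which 229 changed sign, 129 lost their call and 26 gained one.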
